A study of Mus musculus with 36 samples.

Results

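Fibroblasts that had shared a dish with tumour clone T were compared with fibroblasts grown alone. The libraries were chosen by their labels: 4 from the clone T co-culture and 4 from the mono-culture, 8 of the 36 libraries of the series. All were made from murine pancreatic fibroblasts of the C57BL/6 strain. In the co-culture, fibroblasts and clone T grew in direct contact for 48 h and were then separated by flow sorting on GFP, which the tumour cells carried. The labels do not say whether the mono-culture went through the same sort, nor whether the 4 libraries of a group came from separate cultures, so p-values measure the spread between libraries of a group, which may be technical. That spread was estimated over all 36 libraries. The series also holds 4 libraries from each of 7 further co-cultures, with clones E, H, K, M, N and V and with KPC1, a line that the labels do not explain. Clone T is 1 clonal line, and RNA of clone T alone was not analysed here. Counts were compared for 14439 of 39017 genes that passed a filter on low counts.

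Fibroblasts of the pancreas make the collagen-rich stroma of pancreatic tumours. In contact with tumour cells they can change state: a matrix-producing contractile state is linked to TGF-beta, and a state rich in cytokines and chemokines to inflammatory signals. Tumour and stromal cells also exchange growth factors and metabolites, and amino acid shortage or endoplasmic reticulum stress is read out in many cells through ATF4, the transcription factor of the integrated stress response.

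Library totals were between 17364961 and 19031994 counts with clone T and between 12577931 and 20727926 counts in mono-culture. A level is given below as CPM, counts of a library divided by its TMM-scaled total and multiplied by 1000000, and 3 counts, the smallest number read as detected, came to between 0.137 and 0.228 CPM in these libraries. Reads of mitochondrial genes made up between 3.69% and 4.25% of counts with clone T, and 4.31%, 4.22%, 3.87% and 2.16% in mono-culture replicates 1 to 4, so replicate 4 stood below the others. The labelled cell type was checked against 12 fibroblast markers, all of which passed the filter. Col1a1, a defining collagen of fibroblasts, was at 7014, 7931, 6667 and 7445 CPM alone and 5025, 5190.0, 5187 and 4548 CPM with clone T. The leukocyte gene Tyrobp and the endothelial genes Tie1 and Cldn5 had 0 counts in each of the 8, and Ptprc was at or below 0.112 CPM. In the clone T comparison described next, the macrophage or leukocyte list had 6 of 12 members tested, with 3 called higher and 3 lower. The widest changes were in Mrc1 (log2 fold change 8.46) and Lyz2 (-4.39). The summed level of its tested members was 18.9, 17.3, 17.9 and 15.5 CPM alone and 59.2, 24.5, 37.5 and 44.0 CPM with clone T, so it was higher in each clone T library. The endothelial list had 5 tested and 0 called in edgeR's test (0 also at an unadjusted p under 0.05, with DESeq2 and with limma). The mesothelial list had 2 tested and both higher (1 of them Krt19, which the epithelial list also holds), and the acinar or islet list 2 tested, 1 higher and 1 lower. What these lists contribute to other results was not tested.

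Clone T co-culture changed about as many genes upwards as downwards. Of 14439 genes, 7186 (49.8%) differed from mono-culture at an adjusted p below 0.05 in edgeR's quasi-likelihood test: 3613 (25%) were higher and 3573 (24.7%) lower. At least 2-fold changes were found in 1081 genes (7.49%) that were higher and 1213 (8.40%) that were lower. In 3462 genes (24%) each clone T library lay above each mono-culture library, and in 3592 (24.9%) each lay below. The median log2 fold change over all genes tested was 0.00272. These shares are the background for each count of list members given below.

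**Figure D1:**
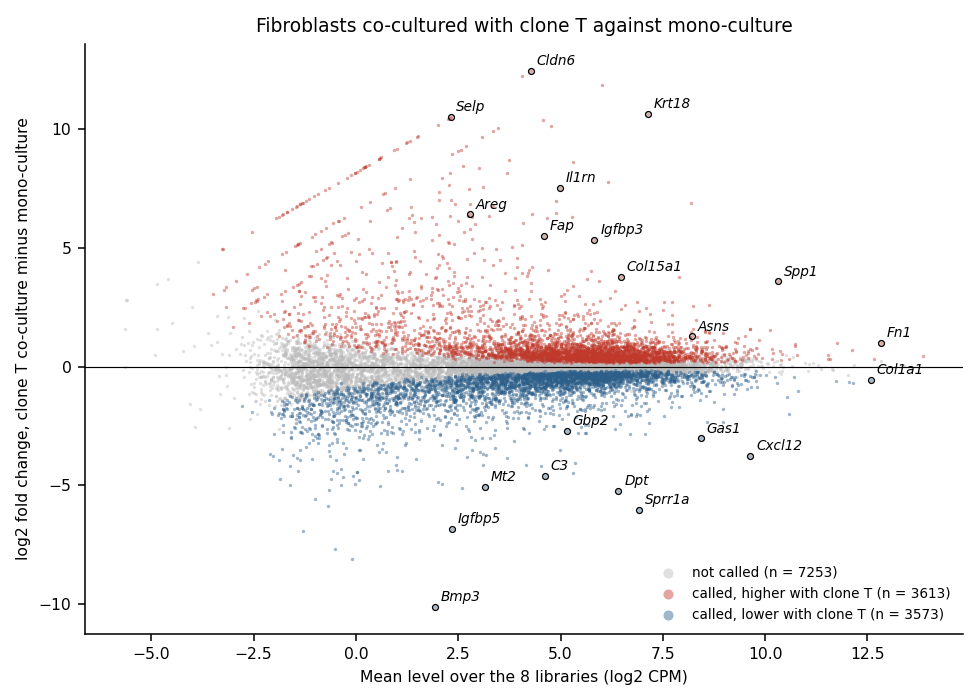
Each point is 1 of the 14439 genes tested, with its mean level over the 8 libraries (log2 CPM) on the x axis and its fitted log2 fold change (clone T co-culture minus mono-culture) on the y axis. Red and blue points passed an adjusted p of 0.05, and the lines of points at the upper left are genes with no counts in mono-culture, whose fitted folds are not bounds. The largest changes upwards were in genes such as Cldn6 and Krt18, and the largest downwards in Bmp3, Igfbp5 and Sprr1a.

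Most of the genes with the highest fold changes are known from epithelia. By rule, the 10 highest fold changes among genes with a mean of at least 2 CPM and no overlap between the groups were taken, and those named here were Cldn6, Palmd, Krt8, Krt18, Selp, Nkx6-3, Cadm1, Pdx1 and Wfdc2. Among them are a tight junction claudin (Cldn6), the keratins of simple epithelia (Krt8 and Krt18) and transcription factors of the pancreatic or gastric epithelium (Pdx1 and Nkx6-3). Cldn6 (ENSMUSG00000023906, chr17:23679249-23682446 on the plus strand, in the GENCODE M21 annotation of GRCm38) had 0 counts in each mono-culture library and 63.9, 21.4, 32.2 and 37.95 CPM with clone T, at least 224-fold higher when the mono-culture is set at the floor of 3 counts per library. Krt8 had 0, 0, 0 and 0.0914 CPM in mono-culture and 226, 64.3, 97.5 and 132 CPM with clone T. The 2 counts behind the mono-culture value of Krt8 put the ratio of summed counts, 4625, between 1280.1 and 38199 (95% exact interval, counting error only). Krt18 was at 0.165, 0.220, 0.0760 and 0.183 CPM alone and 429, 185, 237 and 273 CPM in co-culture. Pdx1, which specifies the pancreas, was at 0 in mono-culture and at 13.9, 3.79, 5.296 and 9.24 CPM with clone T. Palmd and Nkx6-3 also had 0 counts in mono-culture and were at least 191-fold and 56.6-fold higher against the same floor.

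Of 20 genes listed as markers of epithelial or tumour cells, 11 passed the filter, and 9 of these were called higher and 0 lower (25% of all genes tested were called higher). Several of them, such as Cldn6 and Cldn3 with 0 counts in each mono-culture library, passed the filter on low counts only through co-cultures in which they were high, so this count is a description and supports nothing. With at least 10 counts in every library 2 members were tested and 1 was called. The count of lower members was also 0 at an unadjusted p under 0.05, with DESeq2 and with limma on RPKM. The summed level of the 20 was 6.66, 5.88, 4.86 and 6.304 CPM in mono-culture replicates 1 to 4 and 874, 318, 435 and 559 CPM in clone T replicates 1 to 4, so the groups were far apart. The 2 tested markers not called were Krt7, at 0, 0.330, 0.380 and 0.777 CPM alone and 0.786, 0.0549, 0.601 and 0.609 CPM with clone T, and Muc1. Not all defining markers of epithelium were present: Epcam had 0 counts in each clone T library, Esrp1, Cldn4, Cldn7, St14 and Ovol1 were at or under 0.112 CPM, and the cadherin Cdh1 was at 9.38, 3.08, 4.805 and 5.53 CPM. The libraries kept 1 order in most of these genes. Replicate 1 was the highest and replicate 2 the lowest in Krt8, Krt18, Krt19, Cldn6, Cadm1, Pdx1 and Wfdc2. In bulk RNA, fewer cells of a type and less RNA per cell cannot be told apart, and the part of remaining tumour cells in the results below was not tested.

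**Figure D2:**
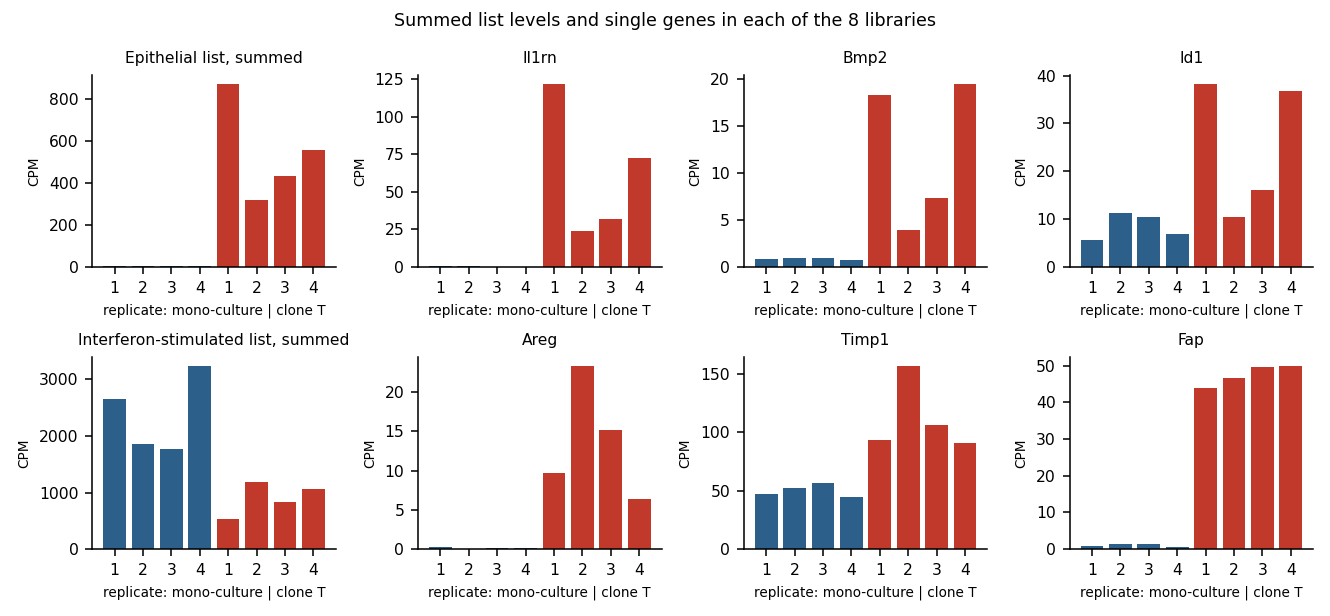
Bars give the CPM of each library (replicates 1 to 4 of mono-culture in blue, replicates 1 to 4 of clone T in red): the summed levels of the tested members of the epithelial and the interferon-stimulated lists, and 6 single genes. The epithelial sum was highest in clone T replicate 1 and lowest in replicate 2, an order that Il1rn kept, while Bmp2 and Id1 were high in replicates 1 and 4, Areg and Timp1 were highest in replicate 2, and Fap differed little between the 4.

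Fibroblast genes moved in both directions. Of the 12 fibroblast markers, 5 were called higher and 7 lower. Fap, the fibroblast activation protein, a serine protease of tumour stroma (ENSMUSG00000000392, chr2:62500943-62574075 on the minus strand), had 0.880, 1.26, 1.52 and 0.640 CPM in mono-culture and 43.8, 46.7, 49.6 and 49.9 CPM with clone T. It rose 45.5-fold (log2 fold change 5.51 ± 0.29 (SE), adjusted p = 8.75e-15), with the 4 clone T libraries close together and far above the mono-culture. Pdgfrb, a receptor of platelet-derived growth factor, rose from 579.5, 568, 571 and 585 CPM to 1409.8, 1223, 1479.9 and 957 CPM (log2 fold change 1.14 ± 0.21 (SE), adjusted p = 4.58e-05). Its partner Pdgfra fell from 353, 314, 312 and 269 CPM to 149.6, 132, 149 and 167 CPM (log2 fold change -1.06 ± 0.21 (SE), adjusted p = 0.00014), and the groups did not overlap in either gene. Thy1 rose (0.73 ± 0.13 on the log2 scale) and Pdpn, the podoplanin gene, fell (-0.74 ± 0.16). Vim, the mesenchymal intermediate filament, was called higher (log2 fold change 0.48 ± 0.18 (SE), adjusted p = 0.0292), a call that was lost without TMM scaling and with limma on RPKM (adjusted p = 0.0554 to 0.0565) and when clone T replicate 1 or 3 or mono-culture replicate 1 or 4 was left out (adjusted p = 0.0546 to 0.0904).

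Of 5 tested pericyte or smooth muscle genes, 3 were called higher and 1 lower. Mcam, the adhesion molecule CD146, had 10.1, 8.303, 9.05 and 9.41 CPM alone and 114, 122, 152 and 64.7 CPM with clone T (log2 fold change 3.61 ± 0.44 (SE), adjusted p = 1.26e-07), and the receptor Notch3 rose 3.42-fold (log2 fold change 1.77 ± 0.27 (SE), adjusted p = 4.3e-06). In both genes each clone T library lay above each mono-culture library. The other member called higher was Myh11, which the contractile list also holds. The pericyte marker Rgs5 fell instead, from 2.15, 2.03, 2.05 and 1.01 CPM to 0.449, 0.275, 0.382 and 0.719 CPM, and Kcnj8 and Higd1b were at or near 0 in all 8 libraries.

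Genes of varied function made up the deepest losses, and the resting fibroblast list moved in both directions. The 10 lowest fold changes by the same rule were Bmp3, Igfbp5, Sprr1a, Dpt, Hlf, Mt2, Fam180a, Insc, C3 and Slc24a3. Bmp3 (ENSMUSG00000029335, chr5:98854415-98884396 on the plus strand), an atypical member of the BMP family, had 8.198, 8.63, 4.79 and 8.91 CPM in mono-culture and 0 counts in each clone T library, at least 46.05-fold lower when clone T is set at the floor of 3 counts per library. Dpt, a dermatopontin of the extracellular matrix (ENSMUSG00000026574, chr1:164796644-164824266 on the plus strand), fell from 227, 175, 126 and 137 CPM to 3.82, 4.12, 4.204 and 5.53 CPM (log2 fold change -5.23 ± 0.40 (SE), adjusted p = 7.89e-11). Sprr1a, a small proline-rich protein, went from 276, 303, 213 and 168 CPM to 5.73, 2.91, 1.91 and 4.205 CPM (log2 fold change -6.02 ± 0.62 (SE), adjusted p = 9.83e-09). The groups were far apart in each of these genes, which the rule had taken only from genes without overlap. Of 22 tested members of the resting fibroblast list, 7 (31.8%) were called higher and 8 (36.4%) lower, beside 25% and 24.7% of all genes. The median log2 fold change was -0.43 against 0.00272 for all genes. Those called higher were Col15a1 (log2 fold change 3.78), Pcolce2 (1.93), Ackr3 (1.29), Ly6c1 (1.27), Smpd3 (1.16), Igfbp3 and Igfbp4. Cd34 fell from 202, 213, 232 and 236 CPM to 83.5, 46.5, 51.98 and 72.4 CPM, and Dcn, the small proteoglycan decorin, from 412, 452, 225 and 178 CPM to 59.8, 76.2, 96.4 and 162 CPM. Clone T replicate 4 kept the most Dcn, close to the lowest mono-culture library. The insulin-like growth factor binding proteins split: Igfbp5 had 17.3, 13.2, 6.69 and 3.29 CPM alone and 0, 0.275, 0 and 0.0553 CPM with clone T, whereas Igfbp3 rose from 1.98, 4.01, 1.52 and 3.11 CPM to 154, 67.8, 128 and 93.9 CPM (log2 fold change 5.35 ± 0.61 (SE), adjusted p = 4.38e-08). Igfbp4 also rose (log2 fold change 1.51 ± 0.25 (SE), adjusted p = 1.08e-05).

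**Figure D3:**
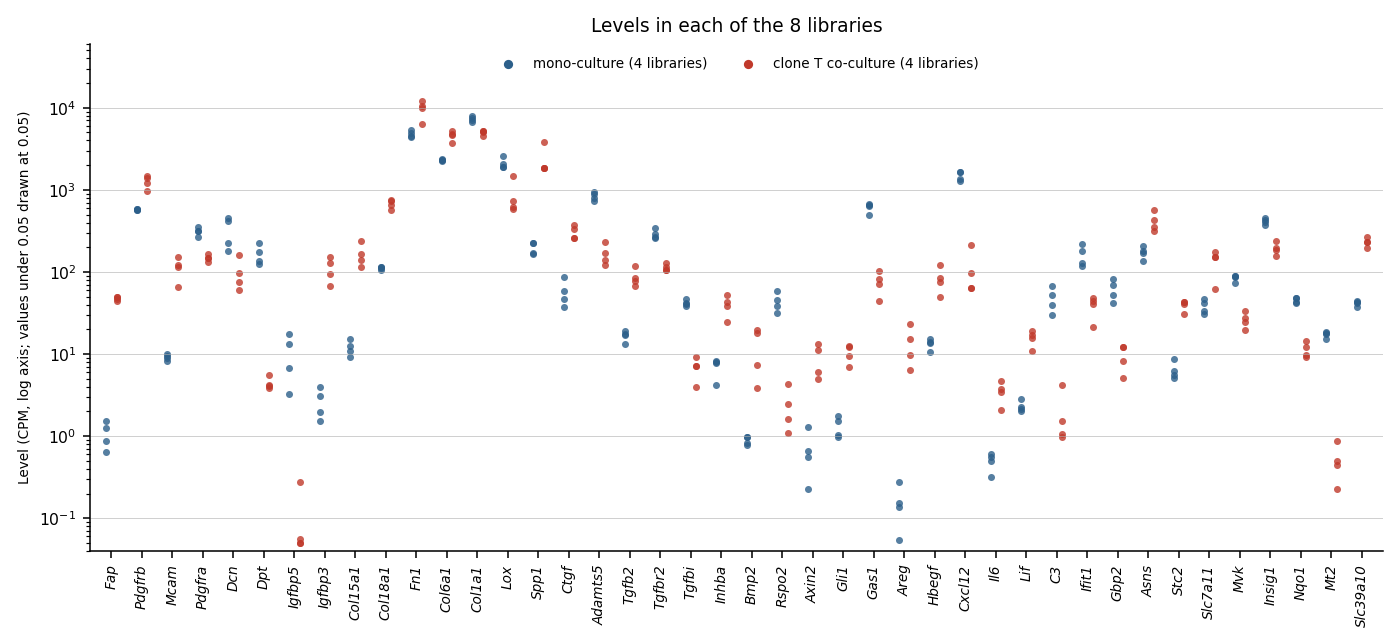
Points give the CPM (log axis) of each of the 8 libraries for 42 genes described in the text, mono-culture in blue and clone T co-culture in red, with values under 0.05 CPM drawn at 0.05. The groups do not overlap in any of the genes shown, and the spread within a group is small beside the gap for genes such as Fap, Dpt and Mt2, and wide for Dcn and Lox. Some of these genes, such as Dpt and Mt2, were taken by a rule that admits only genes without overlap.

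Genes of the fibrillar matrix moved in both directions. Of 24 genes of fibrillar collagens and their crosslinking, 12 (50%) were called higher and 6 (25%) lower, with a median of 0.41. Of all genes 25% were called higher and 24.7% lower, so the share called lower was near that of all genes. The chains of collagens I and III were among those that fell. Col1a1 had 7014, 7931, 6667 and 7445 CPM in mono-culture and 5025, 5190.0, 5187 and 4548 CPM with clone T (log2 fold change -0.54 ± 0.20 (SE), adjusted p = 0.0266), Col1a2 fell by 0.68 on the log2 scale (adjusted p = 0.00094) and Col3a1 by 0.64 (adjusted p = 0.0175). The Col1a1 call was lost when clone T replicate 4 or mono-culture replicate 2 or 4 was left out (adjusted p = 0.0534 to 0.0676), and the Col3a1 call when clone T replicate 2 was left out (adjusted p = 0.0547). The microfibrillar collagen VI chains went the other way: Col6a1 rose from 2344, 2302, 2256 and 2302 CPM to 4684, 4779.5, 5165 and 3731 CPM (log2 fold change 0.996 ± 0.16 (SE), adjusted p = 7.82e-06), Col6a2 rose 1.93-fold and Col6a3 3.03-fold. Col8a1, Col12a1 and Col5a3 rose 2.65-fold, 2.23-fold and 2.38-fold. Lysyl oxidases crosslink collagen and split. Lox had 2081, 2563, 1874 and 1877 CPM alone and 586, 616, 736 and 1486 CPM with clone T (log2 fold change -1.29 ± 0.29 (SE), adjusted p = 0.000415), where replicate 4 stood apart from the other 3, and Loxl1 fell 2.05-fold. Loxl3 and Loxl4 rose 2.003-fold and 1.83-fold.

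Basement membrane genes had the highest median of the 25 pathway lists. Of 20 tested members, 11 were called higher and 2 lower, and the median log2 fold change was 0.87. Col15a1, a collagen that joins basement membranes to fibrils (ENSMUSG00000028339, chr4:47208161-47313167 on the plus strand), had 15.4, 12.6, 10.9 and 9.27 CPM alone and 142, 241, 168 and 115 CPM with clone T (log2 fold change 3.78 ± 0.27 (SE), adjusted p = 1.64e-11). Col18a1, the precursor of endostatin, rose from 105, 114, 115 and 112 CPM to 746, 734, 659 and 566 CPM (log2 fold change 2.599 ± 0.24 (SE), adjusted p = 8.75e-10). In both genes the lowest clone T library was several times the highest mono-culture library. The collagen IV chains Col4a1 and Col4a2 rose 2.92-fold and 3.03-fold, and the laminin chains Lama5 and Lamc1 2.98-fold and 2.05-fold. Nid2, a nidogen that links laminin to collagen IV, fell 2.204-fold (log2 fold change -1.14 ± 0.19 (SE), adjusted p = 1.25e-05), while its paralogue Nid1 rose 1.81-fold. The laminin chain Lama3 fell from 1.65, 1.21, 1.75 and 1.14 CPM to 0.561, 0.330, 0.273 and 0.387 CPM.

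Matricellular proteins sit in the matrix and signal to cells, and of 22 tested members of that list, which includes elastic fibre genes, 11 were called higher and 4 lower (median 0.66). Spp1, osteopontin, had 224, 167, 169 and 223 CPM in mono-culture and 3819.6, 1863, 1863 and 1858 CPM with clone T (log2 fold change 3.59 ± 0.40 (SE), adjusted p = 2.72e-08). Each clone T library was far above the mono-culture in Spp1, and replicate 1 was about 2 times the other 3. Replicate 1 also had the highest epithelial sum, and the part of remaining tumour cells in Spp1 was not tested. Ctgf, a target of TGF-beta and YAP, rose 5.29-fold from 37.9, 87.5, 58.4 and 46.3 CPM (log2 fold change 2.404 ± 0.43 (SE), adjusted p = 3.59e-05). Fn1, fibronectin, was among the 5 genes called higher with the most counts, at 4902, 5422, 4575 and 4433 CPM alone and 10004, 12236, 10438 and 6258 CPM with clone T (log2 fold change 1.01 ± 0.27 (SE), adjusted p = 0.00258). Tnc and Postn rose 2.74-fold and 2.32-fold, and Fbln5, an elastic fibre fibulin, fell 2.14-fold. Cyr61 had 196, 588, 551 and 194 CPM alone and 622, 677, 487 and 791 CPM with clone T and did not pass the test (log2 fold change 0.75 ± 0.33 (SE), adjusted p = 0.0606). It passed with DESeq2, with a replicate block and with limma on RPKM (adjusted p = 0.0318 to 0.0435) and when clone T replicate 3 or mono-culture replicate 2 or 3 was left out (adjusted p = 0.0165 to 0.047).

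The 5 genes called higher with the highest mean CPM were mt-Co1, Fn1, Eef2, Bgn and Col6a1, and the 5 called lower were Col1a1, Col1a2, Col3a1, Scd2 and Fth1. Bgn, the proteoglycan biglycan, rose from 3285, 3587, 3182 and 3450.2 CPM to 4918, 6677, 5650.0 and 4776 CPM (log2 fold change 0.71 ± 0.17 (SE), adjusted p = 0.000681). The mitochondrial gene mt-Co1 was at 14925, 14496, 14057 and 7444 CPM alone and 14925, 19635, 16676 and 17204 CPM with clone T, so that mono-culture replicate 4 stood apart, and its call (log2 fold change 0.43 ± 0.16 (SE), adjusted p = 0.026) was lost without TMM scaling and in a fit of these 8 libraries alone (adjusted p = 0.0666 to 0.0863) and when clone T replicate 2 or mono-culture replicate 4 was left out (adjusted p = 0.0886 to 0.139). Eef2, a translation elongation factor, had a log2 fold change of 0.32 ± 0.13 (adjusted p = 0.046), lost without TMM scaling, without a filter, with at least 10 counts in every library and with limma on RPKM (adjusted p = 0.0538 to 0.131) and when clone T replicate 2, 3 or 4 or mono-culture replicate 1, 2 or 4 was left out (adjusted p = 0.054 to 0.129).

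Matrix proteases and their inhibitors changed in both directions, with 8 of 21 (38.1%) called higher and 7 (33.3%) lower, beside 25% and 24.7% of all genes (median -0.10). Adamts5, an aggrecanase, had 728, 949, 803 and 886 CPM alone and 122, 141, 168 and 233 CPM with clone T (log2 fold change -2.34 ± 0.27 (SE), adjusted p = 6.15e-08), and Adamts1 fell 5.03-fold. Mmp2 and its activator Mmp14 fell 2.36-fold and 2.21-fold. The collagenase Mmp13 and the stromelysin Mmp3 were called higher, Mmp13 from 1 count over the 4 mono-culture libraries to 0.449, 0.549, 0.764 and 0.443 CPM (ratio of summed counts 39.4, 95% exact interval 6.68 to 1596) and Mmp3 3.56-fold. The inhibitor Timp1 rose from 47.2, 52.6, 56.4 and 44.6 CPM to 93.9, 157, 106 and 90.6 CPM (log2 fold change 1.16 ± 0.22 (SE), adjusted p = 6.3e-05), and clone T replicate 2 was the highest library. Timp2, which also takes part in Mmp2 activation, fell 1.37-fold. Plat, the tissue plasminogen activator, rose 2.03-fold.

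Contractile genes moved in both directions, in shares near those of all genes tested. Of 17 tested members, 5 (29.4%) were called higher and 3 (17.6%) lower, beside 25% and 24.7% of all genes, with a median of 0.11. Acta2, the smooth muscle actin that marks myofibroblasts, had 109, 148, 121 and 195 CPM alone and 198, 257, 293 and 212 CPM with clone T. The groups did not overlap, yet it missed the threshold (log2 fold change 0.75 ± 0.37 (SE), adjusted p = 0.0983) with the spread of all 36 libraries and passed it in a fit of these 8 libraries alone (adjusted p = 0.00508). Tagln, at 30.8, 38.4, 30.5 and 47.97 CPM alone and 47.3, 92.8, 74.1 and 91.7 CPM with clone T, likewise missed it (log2 fold change 1.05 ± 0.45 (SE), adjusted p = 0.055). Tagln passed with DESeq2, with a replicate block and in a fit of these 8 libraries alone (adjusted p = 0.00305 to 0.043) and when clone T replicate 1 was left out (adjusted p = 0.0387). The myosin light chain Myl9 fell from 87.6, 96.7, 78.98 and 101 CPM to 35.8, 40.1, 42.8 and 52.9 CPM (log2 fold change -1.09 ± 0.30 (SE), adjusted p = 0.00363), Tpm2 fell 1.49-fold, and Smtn rose 1.8999-fold. The other members called higher were Myh11, which had the highest fold change of the list, Mylk, Cnn1 and Cald1. Lmod1 was the other member called lower. Fewer members were called higher with limma on RPKM. The Cald1 call was lost there, without TMM scaling and when some single libraries were left out.

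**Figure D4:**
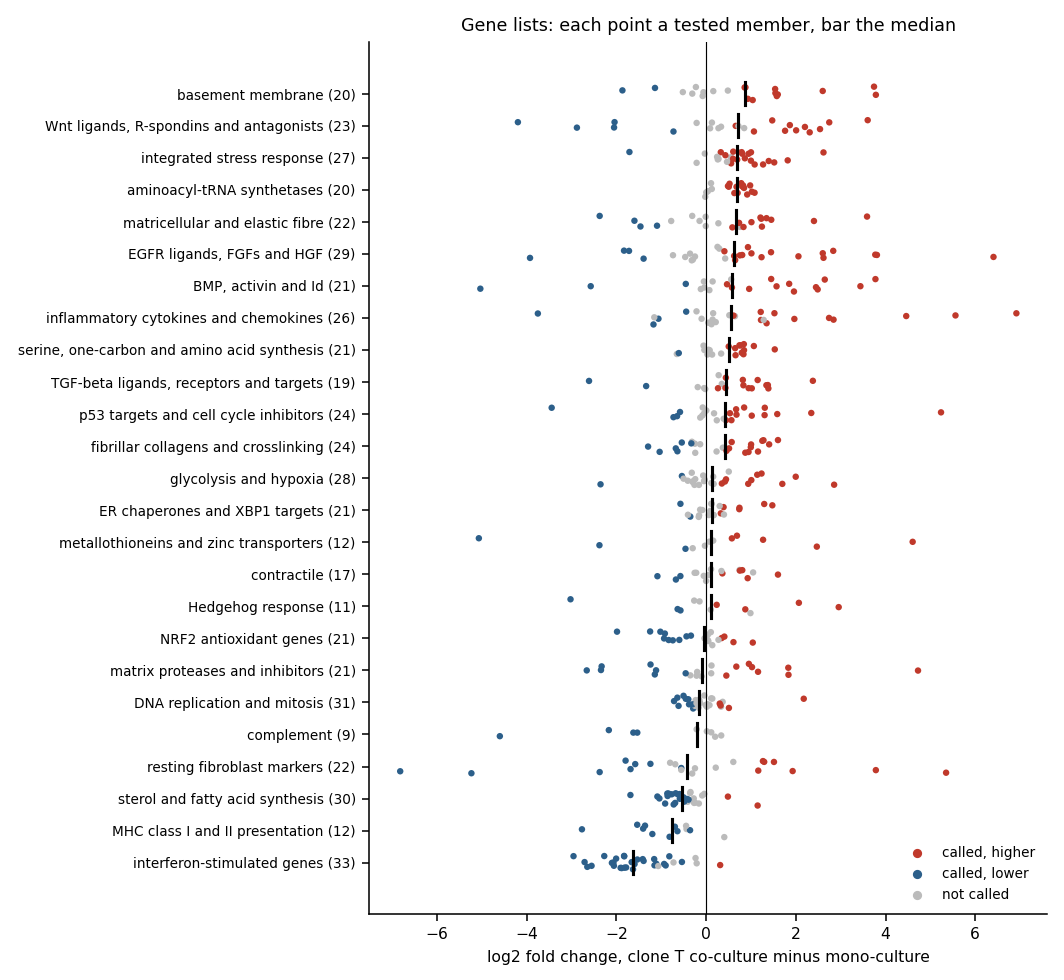
Each row is 1 of the 25 pathway lists with its number of tested members in brackets, each point a member's log2 fold change (clone T co-culture minus mono-culture; red called higher, blue called lower, grey not called) and each black bar the list's median. Medians ran from -1.63 for interferon-stimulated genes to 0.87 for basement membrane genes, beside 0.00272 for all genes tested, and most lists held members called in both directions. The medians of the protease, Hedgehog and glycolysis lists lay near 0 and changed sign under an alternative: to 0.05 for proteases without clone T replicate 1, to -0.04 for Hedgehog with at least 10 counts in every library, and to -0.07 for glycolysis without clone T replicate 4. The NRF2 median, -0.04, became 0.02 without clone T replicate 3 and 0.02 without mono-culture replicate 2.

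TGF-beta ligands and feedback genes rose while 1 receptor and the secreted target Tgfbi fell. Of 19 members tested, 12 were called higher and 2 lower (median 0.44). Among the ligands, Tgfb2 (ENSMUSG00000039239, chr1:186622792-186705989 on the minus strand) rose from 13.3, 18.97, 17.5 and 17.2 CPM to 77.3, 85.5, 117 and 68.4 CPM (log2 fold change 2.38 ± 0.21 (SE), adjusted p = 6.98e-10), and Tgfb1 and Tgfb3 rose 1.76-fold and 1.93-fold. The type I receptor Tgfbr1 rose 2.02-fold and the type II receptor Tgfbr2 fell, from 267, 294, 258 and 338 CPM to 129.6, 107, 116 and 106 CPM (log2 fold change -1.34 ± 0.15 (SE), adjusted p = 3.71e-08). The feedback inhibitors Smad7, Skil and Pmepa1 rose 2.22-fold, 2.62-fold and 2.54-fold, with no overlap between groups. Tgfbi, a secreted protein named for its induction by TGF-beta, fell from 46.4, 41.4, 40.4 and 38.7 CPM to 7.13, 3.95, 7.098 and 9.13 CPM (log2 fold change -2.61 ± 0.31 (SE), adjusted p = 9.31e-08).

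In the BMP, activin and Id list, 12 of 21 were called higher and 3 lower (median 0.58). Bmp2 rose from 0.825, 0.990, 0.988 and 0.777 CPM to 18.2, 3.899, 7.37 and 19.5 CPM (log2 fold change 3.77 ± 0.62 (SE), adjusted p = 1.07e-05), and the 4 clone T libraries ran over a wide range, with replicates 1 and 4 high. Id1, a direct target of BMP signalling, had 5.67, 11.4, 10.4 and 6.99 CPM alone and 38.3, 10.5, 16.2 and 36.8 CPM with clone T (log2 fold change 1.57 ± 0.37 (SE), adjusted p = 0.000704). It was high in the same 2 libraries as Bmp2, and clone T replicate 2 fell within the range of mono-culture. Id3 kept that order, and its call (adjusted p = 0.0491) was lost without TMM scaling, without a filter, with a replicate block, in a fit of these 8 libraries alone and with limma on RPKM (adjusted p = 0.0534 to 0.17) and when clone T replicate 1 or 4 or mono-culture replicate 1, 3 or 4 was left out (adjusted p = 0.0882 to 0.225). Inhba, the activin A subunit, rose 5.605-fold from 4.24, 7.92, 7.75 and 8.27 CPM (log2 fold change 2.49 ± 0.27 (SE), adjusted p = 2.02e-08), and its antagonist Fst, follistatin, 10.8-fold. The BMP antagonist Grem1 rose 2.73-fold, whereas Chrdl1, another BMP antagonist, had 2.696, 3.46, 2.96 and 2.604 CPM alone and 0, 0.110, 0.0546 and 0.166 CPM with clone T. Bmp6 fell 5.95-fold and Bmp4 had a log2 fold change of 0.07 ± 0.23 (adjusted p = 0.818).

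Several Wnt target genes rose, both tested R-spondins fell, and secreted antagonists split. Of 23 tested members, 11 were called higher and 5 lower (median 0.72). The R-spondins, secreted enhancers of Wnt signalling, fell: Rspo2 (ENSMUSG00000051920, chr15:43020794-43170826 on the minus strand) had 45.1, 59.3, 38.8 and 31.5 CPM alone and 1.63, 2.47, 1.09 and 4.32 CPM with clone T (log2 fold change -4.197 ± 0.44 (SE), adjusted p = 1.04e-08), and Rspo3 fell 7.37-fold. The secreted antagonist Sfrp2 also fell, from 192, 248, 177 and 183 CPM to 46.6, 26.5, 55.6 and 63.96 CPM, while its paralogue Sfrp1 rose from 8.31, 9.18, 7.83 and 9.91 CPM to 14.4, 12.7, 17.6 and 29.4 CPM (log2 fold change 1.07 ± 0.33 (SE), adjusted p = 0.00754). The Sfrp1 call was lost when clone T replicate 4 was left out (adjusted p = 0.0601). The related Sfrp4 and Frzb did not pass the test (adjusted p = 0.109 for Sfrp4 and 0.88 for Frzb). Sfrp4 passed as higher with a replicate block and in a fit of these 8 libraries alone (adjusted p = 0.0338 to 0.0345). Genes that are used as reports of beta-catenin activity mostly rose: Axin2 from 0.660, 0.550, 0.228 and 1.28 CPM to 13.1, 6.04, 11.4 and 4.98 CPM (log2 fold change 3.602 ± 0.51 (SE), adjusted p = 1.42e-06), Nkd1 6.702-fold, Lef1 3.39-fold, Tcf7 2.78-fold and Notum 3.65-fold. The groups did not overlap in any of these 5. Nkd2 and Znrf3 were called higher too, and Rnf43 and Apcdd1 did not pass, with log2 fold changes of 0.72 ± 0.63 (adjusted p = 0.359) and 0.33 ± 0.22 (adjusted p = 0.208). Of the ligands, Wnt5a, Wnt4 and Wnt11 rose 4.02-fold, 4.95-fold and 5.81-fold, and Wnt5b fell 4.12-fold.

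Hedgehog response genes also moved both ways, with 4 of 11 (36.4%) called higher and 3 (27.3%) lower, beside 25% and 24.7% of all genes (median 0.10). Gli1, the transcription factor that reports pathway activity, had 1.05, 0.990, 1.52 and 1.74 CPM alone and 12.6, 9.45, 12.2 and 6.97 CPM with clone T (log2 fold change 2.96 ± 0.35 (SE), adjusted p = 7.93e-08). The receptor gene Ptch1, also a target of the pathway, rose 1.83-fold. The co-receptor Gas1 (ENSMUSG00000052957, chr13:60174405-60177365 on the minus strand) fell from 631, 672, 646 and 498 CPM to 81.9, 44.8, 71.9 and 102 CPM (log2 fold change -3.02 ± 0.37 (SE), adjusted p = 1.64e-07), and the signal transducer Smo fell 1.55-fold. Gli2 was called lower (log2 fold change -0.57 ± 0.21 (SE), adjusted p = 0.0215), a call lost when clone T replicate 2 or 4 or mono-culture replicate 2 was left out (adjusted p = 0.0543 to 0.0828).

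Of 6 tested ligands of the EGF receptor, Areg, Ereg, Hbegf, Btc and Tgfa rose and Egf did not. Of 29 members of the growth factor list, 16 were called higher and 4 lower (median 0.62). Areg, amphiregulin (ENSMUSG00000029378, chr5:91139599-91148432 on the plus strand), was barely detected alone (0.275, 0.0550, 0.152 and 0.137 CPM) and reached 9.71, 23.3, 15.1 and 6.42 CPM with clone T (log2 fold change 6.41 ± 0.79 (SE), adjusted p = 1.57e-07). Hbegf rose from 10.6, 15.4, 14.1 and 13.8 CPM to 76.3, 122, 83.6 and 48.9 CPM (log2 fold change 2.62 ± 0.33 (SE), adjusted p = 2.02e-07). Ereg, Tgfa and Btc rose 7.13-fold, 6.06-fold and 4.16-fold, and Egf had 1.1004, 1.26, 1.37 and 1.19 CPM alone and 0.898, 0.330, 0.928 and 0.775 CPM with clone T (log2 fold change -0.74 ± 0.32 (SE), adjusted p = 0.0549), passing as lower without TMM scaling and with limma on RPKM (adjusted p = 0.0267 to 0.0423) and when clone T replicate 1 or 3 was left out (adjusted p = 0.0466 to 0.0496). In Areg, Ereg and Hbegf clone T replicate 2 was the highest library. Replicate 2 also had the lowest epithelial sum of clone T, and the part of remaining tumour cells in these genes was not tested. The receptor Egfr rose 1.91-fold. Pdgfb rose 13.6-fold from 1.38, 1.21, 0.836 and 1.096 CPM (log2 fold change 3.77 ± 0.61 (SE), adjusted p = 8.09e-06) and Vegfa 2.35-fold. Hgf and Fgf7, fibroblast ligands for epithelial receptors, did not pass the test: log2 fold change 0.29 ± 0.14 for Hgf (adjusted p = 0.0877) and -0.32 ± 0.15 for Fgf7 (adjusted p = 0.0775). Hgf passed when mono-culture replicate 1 was left out (adjusted p = 0.0394). Fgf7 passed without TMM scaling, in a fit of these 8 libraries alone and with limma on RPKM (adjusted p = 0.0208 to 0.0252) and when mono-culture replicate 3 was left out (adjusted p = 0.0464).

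More cytokine and chemokine genes rose than fell, while Cxcl12 fell. Of 26 tested members, 11 were called higher and 4 lower (median 0.56), while the summed level of the list went from 2624, 2685, 2331 and 2330.3 CPM to 1192, 1274, 1231 and 1323 CPM. Cxcl12, the ligand of CXCR4 (ENSMUSG00000061353, chr6:117168535-117181367 on the plus strand), held most of the mono-culture sum, with 1638, 1666, 1339.7 and 1278 CPM alone and 97.5, 64.6, 63.8 and 214 CPM with clone T (log2 fold change -3.75 ± 0.41 (SE), adjusted p = 2.41e-08). The interleukin 6 family member Lif rose from 2.04, 2.14, 2.28 and 2.83 CPM to 19.1, 15.6, 17.03 and 10.8 CPM (log2 fold change 2.74 ± 0.45 (SE), adjusted p = 1.1e-05). Il6 itself rose from 0.495, 0.550, 0.608 and 0.320 CPM to 3.71, 4.72, 3.44 and 2.102 CPM (log2 fold change 2.84 ± 0.43 (SE), adjusted p = 2.4e-06), a low level in both groups. Ptgs2, the inducible cyclooxygenase, rose 3.91-fold. Ccl2 and Cxcl1 did not pass: the log2 fold change was 0.05 ± 0.40 for Ccl2 (adjusted p = 0.931) and 0.12 ± 0.80 for Cxcl1 (adjusted p = 0.917). Of 9 tested complement genes, 4 were called lower and 0 higher by edgeR, and also 0 higher at an unadjusted p under 0.05, with DESeq2 and with limma on RPKM. C3, the central component, fell from 66.8, 39.8, 30.02 and 52.6 CPM to 1.07, 1.54, 0.983 and 4.205 CPM (log2 fold change -4.599 ± 0.63 (SE), adjusted p = 7.58e-07), and C1ra fell 3.08-fold.

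Interferon-stimulated genes fell. Type I interferons act through a complex of transcription factors that binds the interferon-stimulated response element in the promoters of antiviral genes. Of 33 tested members, 1 was called higher and 28 lower (24.7% of all genes tested were called lower), and the median log2 fold change was -1.63. The summed level was 2660.5, 1866, 1765 and 3237 CPM in mono-culture and 527, 1193, 825 and 1069 CPM with clone T. Mono-culture replicates 1 and 4 were above the other mono-culture libraries, and clone T replicate 1 was the lowest of all 8. Ifit1, an RNA-binding effector, had 178, 128, 119 and 219 CPM alone and 21.4, 48.1, 40.2 and 44.3 CPM with clone T (log2 fold change -2.07 ± 0.29 (SE), adjusted p = 1.08e-06). Gbp2, a guanylate-binding GTPase, fell from 69.98, 52.8, 42.2 and 81.6 CPM to 5.05, 12.2, 8.24 and 12.2 CPM (log2 fold change -2.71 ± 0.36 (SE), adjusted p = 5.62e-07), and Cmpk2, which had the lowest fold change of the list, 7.76-fold. The regulator Irf7 fell 3.095-fold. The 1 gene called higher was Isg20 (18.9, 17.9, 15.7 and 19.1 CPM alone, 18.2, 24.8, 20.2 and 25.8 CPM with clone T), with overlapping groups and a call that was lost without TMM scaling and with limma on RPKM (adjusted p = 0.117 to 0.12) and when clone T replicate 2 or 4 or mono-culture replicate 3 was left out (adjusted p = 0.0943 to 0.121).

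The promoters of 3 of these genes are printed because they hold letters of the response element and the genes fell together. Each is the 250 bases before the RefSeq start in GRCm38.p6, read 5′ to 3′ on the gene's strand, and capitals mark matches to GAAA, any 2 bases and GAAA again, or its reverse complement, with overlapping matches merged.
Ifit1 promoter (chr19:34640639-34640888, plus strand): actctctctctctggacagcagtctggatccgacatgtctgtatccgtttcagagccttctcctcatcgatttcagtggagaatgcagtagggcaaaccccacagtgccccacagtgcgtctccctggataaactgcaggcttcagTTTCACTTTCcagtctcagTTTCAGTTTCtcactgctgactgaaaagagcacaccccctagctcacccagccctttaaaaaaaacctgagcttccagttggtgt
Isg15 promoter (chr4:156200819-156201068, minus strand): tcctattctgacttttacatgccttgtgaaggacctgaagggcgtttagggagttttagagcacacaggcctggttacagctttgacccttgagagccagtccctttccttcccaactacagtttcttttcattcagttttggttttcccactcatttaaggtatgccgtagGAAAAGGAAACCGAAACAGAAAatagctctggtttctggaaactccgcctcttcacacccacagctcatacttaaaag
Gbp2 promoter (chr3:142620413-142620662, plus strand): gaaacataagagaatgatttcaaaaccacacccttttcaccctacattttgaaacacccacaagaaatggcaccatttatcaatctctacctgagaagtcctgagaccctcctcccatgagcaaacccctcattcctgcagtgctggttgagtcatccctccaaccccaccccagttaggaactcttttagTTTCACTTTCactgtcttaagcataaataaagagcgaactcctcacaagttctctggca
Isg15, the ubiquitin-like modifier, holds 3 overlapping matches in a single run, Ifit1 holds 2 and Gbp2 holds 1. Isg15 fell 3.16-fold (log2 fold change -1.66 ± 0.33 (SE), adjusted p = 0.000141). Of 33 tested list members, 25 had a promoter in the reference table, and 12 of these (48.0%) held the letters, against 318 of 9941 genes tested with a promoter there (3.20%) and 936 of 27025 genes of the table (3.46%). A match describes the letters and is not a measurement of binding.

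Antigen presentation genes fell as well. Of 12 tested members, 9 were called lower and 0 higher by edgeR, and 0 were higher also at an unadjusted p under 0.05 and by the other tools (median -0.76). Psmb9, a subunit of the immunoproteasome, fell from 5.94, 3.46, 4.18 and 5.35 CPM to 0.393, 0.549, 0.819 and 0.996 CPM (log2 fold change -2.77 ± 0.37 (SE), adjusted p = 4e-07), and Tapbp, tapasin, fell 2.65-fold. The class I light chain B2m had 1141, 1045, 857 and 1158 CPM alone and 627, 958, 753 and 939 CPM with clone T, overlapping groups, and its call (log2 fold change -0.36 ± 0.13 (SE), adjusted p = 0.0203) was lost in a fit of these 8 libraries alone (adjusted p = 0.0537) and when clone T replicate 1 or 3 or mono-culture replicate 1 or 4 was left out (adjusted p = 0.0603 to 0.114).

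Genes of the integrated stress response rose. Stress kinases phosphorylate eIF2, which favours translation of ATF4, and ATF4 then induces genes for amino acid uptake and synthesis. Of 27 tested members, 18 were called higher and 1 lower, with a median of 0.69. Asns, asparagine synthetase (ENSMUSG00000029752, chr6:7675169-7693254 on the minus strand), had 137, 205, 171 and 180.1 CPM alone and 356, 573, 428 and 316 CPM with clone T (log2 fold change 1.27 ± 0.22 (SE), adjusted p = 2.64e-05). Slc7a11, the cystine transporter, rose from 30.8, 46.4, 33.7 and 42.4 CPM to 177, 150.4, 152 and 61.9 CPM (log2 fold change 1.82 ± 0.41 (SE), adjusted p = 0.000525), and the secreted Stc2 6.13-fold (log2 fold change 2.62 ± 0.36 (SE), adjusted p = 8.18e-07). The 4 clone T libraries were above the 4 of mono-culture in all 3. Vldlr and Trib3 rose 2.86-fold and 1.82-fold. Atf4 itself, which is controlled largely at translation, was at 481, 673, 574 and 650.4 CPM alone and 796, 783, 718 and 685 CPM with clone T, and its call (log2 fold change 0.33 ± 0.14 (SE), adjusted p = 0.0494) was lost without TMM scaling, with at least 10 counts in every library and with limma on RPKM (adjusted p = 0.0554 to 0.0957) and when clone T replicate 1, 2 or 3 or mono-culture replicate 1 or 3 was left out (adjusted p = 0.0593 to 0.197). The 1 member called lower was Atf5, a related factor, at 319, 370.1, 324 and 454 CPM alone and 132, 106, 111 and 99.1 CPM with clone T (log2 fold change -1.71 ± 0.23 (SE), adjusted p = 6.85e-07).

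The promoters of Asns and Slc7a11 are printed with capitals on TGATGNAA, the composite element of C/EBP and ATF factors, or its reverse complement, over the same 250 bases before the start.
Asns promoter (chr6:7693210-7693459, minus strand): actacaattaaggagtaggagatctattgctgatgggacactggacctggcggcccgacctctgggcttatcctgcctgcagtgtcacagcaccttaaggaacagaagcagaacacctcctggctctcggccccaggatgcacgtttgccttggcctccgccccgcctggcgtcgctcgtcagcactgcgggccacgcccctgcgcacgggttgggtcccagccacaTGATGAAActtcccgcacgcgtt
Slc7a11 promoter (chr3:50443614-50443863, minus strand): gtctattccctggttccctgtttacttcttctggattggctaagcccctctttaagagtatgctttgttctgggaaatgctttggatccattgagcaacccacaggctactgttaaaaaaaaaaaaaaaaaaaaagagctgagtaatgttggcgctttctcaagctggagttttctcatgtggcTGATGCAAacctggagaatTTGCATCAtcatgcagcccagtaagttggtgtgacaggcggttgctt
Asns holds 1 match and Slc7a11 holds 2, on opposite strands. Of 27 tested members of the stress response list, 24 had a promoter in the table and 7 (29.2%) held the letters. Of 20 aminoacyl-tRNA synthetase genes, 12 had a promoter and 3 held them. The share was 2.45% (244 of 9941) among genes tested and 3.91% (1056 of 27025) in the whole table. Of the holders, Asns, Slc7a11, Vldlr, Nupr1, Chac1, Gars and Tars were called higher, and Atf3, Fgf21 and Aars were not called. Stc2, with the highest fold change of the stress response list, held no match. Here too a match describes the letters and is not a measurement of binding.

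Aminoacyl-tRNA synthetases, which charge tRNAs with amino acids, were called higher in 15 of 20 and lower in 0 by edgeR, and lower in 0 also at an unadjusted p under 0.05 and by the other tools (median 0.69). Iars rose from 131, 171, 144 and 161 CPM to 315, 403, 342 and 221 CPM (log2 fold change 1.08 ± 0.20 (SE), adjusted p = 5.71e-05), and Cars and Nars rose 2.03-fold and 1.72-fold. Aars did not pass the test (log2 fold change 0.00 ± 0.18, adjusted p = 0.992). Of 21 genes of serine, one-carbon and amino acid synthesis, 11 were called higher and 1 lower (median 0.50). Phgdh, the entry enzyme of serine synthesis, rose from 203, 271, 229.7 and 243 CPM to 389.7, 434, 399.5 and 359 CPM (log2 fold change 0.74 ± 0.15 (SE), adjusted p = 0.000118). Mthfd2 and Shmt2 of mitochondrial one-carbon metabolism rose 1.78-fold and 1.698-fold, and Cth, which makes cysteine, 2.89-fold. The aspartate aminotransferases split: cytosolic Got1 rose 2.09-fold (log2 fold change 1.06 ± 0.17 (SE), adjusted p = 8.5e-06) and mitochondrial Got2 fell 1.53-fold (log2 fold change -0.61 ± 0.09 (SE), adjusted p = 1.42e-06). In Iars, Nars, Phgdh, Mthfd2 and Cth clone T replicate 2 was the highest and replicate 4 the lowest of the clone T libraries.

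Genes of sterol and fatty acid synthesis fell. Of 30 tested members, 2 were called higher and 19 lower (median -0.55). Mvk, mevalonate kinase (ENSMUSG00000041939, chr5:114444269-114460591 on the plus strand), fell from 73.3, 90.1, 87.3 and 89.7 CPM to 33.6, 19.8, 24.7 and 27.6 CPM (log2 fold change -1.69 ± 0.17 (SE), adjusted p = 3.06e-09). Hmgcs1, which makes HMG-CoA, fell from 451, 550.4, 592 and 591 CPM to 295, 219.7, 257 and 289 CPM (log2 fold change -1.04 ± 0.17 (SE), adjusted p = 9.51e-06), and Insig1, a sterol-regulated brake on the pathway, 2.12-fold. The groups did not overlap in these 3 genes, and clone T replicate 2 was the lowest library in each. Srebf2, which encodes the regulator of the pathway, did not pass the test, with a log2 fold change of -0.04 ± 0.13 (adjusted p = 0.811). Scd2, a fatty acid desaturase, fell 1.502-fold (adjusted p = 0.018), a call lost when clone T replicate 2 or 4 or mono-culture replicate 4 was left out (adjusted p = 0.0599 to 0.0655). Acacb, an acetyl-CoA carboxylase, was called higher (log2 fold change 0.49 ± 0.18 (SE), adjusted p = 0.0213), a call lost with limma on RPKM (adjusted p = 0.0514 to 0.0588) and when clone T replicate 3 or mono-culture replicate 2 was left out (adjusted p = 0.0509 to 0.0759).

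Iron storage, antioxidant and metal-binding genes fell in part. Of 21 genes of the NRF2 list, 4 were called higher and 10 lower (median -0.04). Fth1, the ferritin heavy chain, fell from 2442, 2565, 2474 and 2102 CPM to 1108, 1124, 1127 and 1366 CPM (log2 fold change -1.02 ± 0.11 (SE), adjusted p = 2.02e-08), and the light chain Ftl1 1.92-fold. Ferritins, like Eef2 and Gapdh, have processed copies in the genome, so their counts are uncertain where reads could be split between copies. Nqo1, a quinone reductase, fell from 42.9, 48.3, 47.9 and 41.4 CPM to 12.1, 9.12, 9.83 and 14.5 CPM (log2 fold change -1.99 ± 0.26 (SE), adjusted p = 2.51e-07), while Nfe2l2, the gene of NRF2, rose 1.53-fold. Metallothioneins bind zinc and copper and are induced by zinc through MTF1. Mt2 had 18.7, 17.5, 17.9 and 15.3 CPM alone and 0.225, 0.439, 0.491 and 0.885 CPM with clone T (log2 fold change -5.07 ± 0.70 (SE), adjusted p = 8.66e-07). Mt1 fell from 254, 264, 249 and 191 CPM to 42.3, 43.4, 34.7 and 63.8 CPM (log2 fold change -2.38 ± 0.29 (SE), adjusted p = 9.86e-08). The zinc importer Slc39a10 (ENSMUSG00000025986, chr1:46807544-46892852 on the minus strand) moved the opposite way, from 43.5, 44.2, 37.1 and 42.1 CPM to 232, 264, 229.7 and 198 CPM (log2 fold change 2.47 ± 0.15 (SE), adjusted p = 3.66e-13). In all 3 genes the groups were well separated, and Mt2 came from the rule that admits only genes without overlap. Slc39a4, another importer, had 3 counts over the 4 mono-culture libraries and 1.12, 1.04, 1.31 and 1.27 CPM with clone T, a ratio of summed counts of 28.3 (95% exact interval 9.35 to 139.8). Of 12 tested members of the metallothionein and zinc transporter list, 5 (41.7%) were called higher and 3 (25%) lower (median 0.11). The shares of all genes were 25% and 24.7%.

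The Mt2 promoter is shown as the gene with the lowest fold change of its list, with capitals on TGCNCNC, the core of the metal response element, or its reverse complement, in the 250 bases before the start.
Mt2 promoter (chr8:94172368-94172617, plus strand): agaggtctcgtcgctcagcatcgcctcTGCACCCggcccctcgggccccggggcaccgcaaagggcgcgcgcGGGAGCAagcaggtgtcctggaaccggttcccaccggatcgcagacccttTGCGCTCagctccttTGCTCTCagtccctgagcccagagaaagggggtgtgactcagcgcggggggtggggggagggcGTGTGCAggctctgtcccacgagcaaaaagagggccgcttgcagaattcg
It holds 5 matches. These 7 loosely defined letters are common, in 77.8% of 9 list members with a promoter, 57.5% of 9941 genes tested and 47.2% of all 27025, so their presence alone sets no gene apart.

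Glycolysis and hypoxia genes had 10 of 28 called higher and 2 lower (median 0.14). Hk2, an inducible hexokinase, rose from 14.7, 18.3, 13.6 and 16.9 CPM to 66.97, 69.7, 71.6 and 45.98 CPM (log2 fold change 1.997 ± 0.26 (SE), adjusted p = 3.88e-07). Adm, adrenomedullin, a hypoxia target, fell from 18.3, 30.3, 17.6 and 20.8 CPM to 1.403, 3.08, 2.84 and 9.68 CPM (log2 fold change -2.35 ± 0.48 (SE), adjusted p = 0.000164). Aldoc had 4.07, 5.11, 5.02 and 3.93 CPM alone and 48.4, 10.2, 15.1 and 56.9 CPM with clone T, high in replicates 1 and 4 like Bmp2. Gapdh had a log2 fold change of -0.07 ± 0.15 (adjusted p = 0.753). Among 21 genes of endoplasmic reticulum folding, 6 (28.6%) were called higher and 2 (9.52%) lower (median 0.12), beside 25% and 24.7% of all genes. The sensor Atf6 rose from 76.8, 83.2, 79.8 and 90.3 CPM to 219.9, 287, 241 and 169.9 CPM (log2 fold change 1.48 ± 0.19 (SE), adjusted p = 3.61e-07), and the chaperone Hspa5 rose 1.67-fold, while Calr, calreticulin, fell 1.49-fold.

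Of 31 genes of DNA replication and mitosis, 4 were called higher and 9 lower (median -0.15), beside 25% and 24.7% for all genes. Ccnd1, the growth factor-responsive cyclin D1, had 66.6, 77.3, 68.1 and 94.8 CPM alone and 501, 278, 371 and 238 CPM with clone T (log2 fold change 2.18 ± 0.31 (SE), adjusted p = 1.22e-06). The replication genes Mcm5 and Tk1 fell 1.56-fold and 1.64-fold, and Mki67, the proliferation marker, did not pass (log2 fold change 0.37 ± 0.17, adjusted p = 0.0648) and passed in a fit of these 8 libraries alone (adjusted p = 0.0278) and when clone T replicate 1 or mono-culture replicate 4 was left out (adjusted p = 0.0277 to 0.045). In the list of p53 targets and cell cycle inhibitors, 12 of 24 were called higher and 4 lower (median 0.42). Gadd45a rose from 41.7, 42.7, 39.4 and 36.8 CPM to 164, 263, 196 and 192 CPM (log2 fold change 2.34 ± 0.30 (SE), adjusted p = 2.32e-07) and Cdkn1a, the p21 inhibitor, 1.799-fold. Cdkn1c, the p57 inhibitor (ENSMUSG00000037664, chr7:143458339-143461050 on the minus strand), fell from 20.1, 20.5, 16.5 and 20.01 CPM to 1.24, 1.92, 1.58 and 2.32 CPM (log2 fold change -3.44 ± 0.28 (SE), adjusted p = 1.12e-10), and Cdkn2a fell 1.57-fold.

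Whether these changes differed from those with the other tumour lines was tested as clone T against the mean of the 7 other co-cultures, a contrast in which the mono-culture cancels and which shares the 4 clone T libraries with the comparison above. Of 14439 genes, 962 (6.66%) passed, 673 (4.66%) higher and 289 (2.00%) lower with clone T. Of these, 236 (1.63%) were at least 2-fold higher and 61 (0.422%) at least 2-fold lower. The number of calls rested on the clone T libraries: it was 439 without clone T replicate 1, 440 without replicate 3 and 626 without replicate 2, and it was 2030 when KPC1 was taken out of the mean and 1583 with a replicate block.

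By the same rule on level, the 5 highest differences were in Vsig1, Il1rn, Selp, Slc9a2 and Blnk. Selp, the adhesion receptor P-selectin (ENSMUSG00000026580, chr1:164115264-164150026 on the plus strand), had 0 counts in mono-culture, 8.14, 9.17, 14.6 and 7.86 CPM with clone T and means between 0.181 and 2.21 CPM with the other lines (log2 difference 3.84 ± 0.41 (SE), adjusted p = 4.33e-07). Each clone T library lay above each library of the other 7 co-cultures in Selp. Il1rn, the interleukin 1 receptor antagonist, was at 122, 24.1, 31.99 and 72.4 CPM with clone T (log2 difference 4.23 ± 0.24 (SE), adjusted p = 1.89e-13). It was also raised with clone E (21.7 to 32.7 CPM) and clone N (13.4 to 39.6 CPM), and those ranges overlap that of clone T. Vsig1, an epithelial junction protein, had 9.26, 1.81, 3.39 and 7.08 CPM (log2 difference 5.68 ± 0.34 (SE), adjusted p = 1.89e-13), with its highest library in replicate 1 and its lowest in replicate 2, as for the epithelial sum, and clone N reached 2.11 CPM. The sodium-proton exchanger Slc9a2 was at 18.8, 19.4, 20.9 and 8.46 CPM (log2 difference 3.77 ± 0.42 (SE), adjusted p = 3.94e-07), an order unlike that of the epithelial sum, with replicate 4 the lowest and overlapped by the highest libraries of clone N and KPC1 (11.1 and 10.9 CPM). Blnk, an adaptor of B cell receptor signalling, was at 2.64 to 7.14 CPM with clone T and 2.63 to 5.33 CPM with clone E (log2 difference 3.58 ± 0.27 (SE), adjusted p = 4.02e-11). Krt8 did not pass against the mean of the other lines (log2 difference 0.95 ± 0.45 (SE), adjusted p = 0.211). Of 11 tested epithelial markers, 2 were called higher in this contrast and 0 lower (4.66% and 2.00% of all genes), with a median of 0.95. At an unadjusted p under 0.05, 8 were higher, and 0 were lower there, with DESeq2 or with limma on RPKM. The summed level of the 20 listed was 318 to 874 CPM with clone T, 457 to 706 CPM with clone N and 40.6 to 240 CPM with clone V. What remaining tumour cells contribute to the genes named here was not tested.

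The 5 lowest differences were in Insc, Pgm5, Fam180a, Dpt and Mfap4. Dpt was at 3.82, 4.12, 4.204 and 5.53 CPM with clone T, 1.69 to 5.13 CPM with KPC1, 3.54 to 10.6 CPM with clone V and between 7.38 and 33.9 CPM with the other 5 clones (log2 difference -1.54 ± 0.31 (SE), adjusted p = 0.00222), so KPC1 and clone V overlapped clone T. Insc, a regulator of spindle orientation, had 0.164 to 0.332 CPM with clone T and 0.211 to 0.493 CPM with KPC1 (log2 difference -2.17 ± 0.47 (SE), adjusted p = 0.00396). Pgm5, a phosphoglucomutase-related protein of adhesion sites, was at 0.275 to 0.609 CPM with clone T (log2 difference -2.08 ± 0.41 (SE), adjusted p = 0.0014). With KPC1 it was at 0.362 to 0.493 CPM, inside the clone T range. Fam180a was at 0.218 to 0.393 CPM with clone T, and Mfap4 at 1.18 to 3.15 CPM. In both genes the ranges of clones H and V and of KPC1 overlapped that of clone T. The call of Fam180a (log2 difference -1.67 ± 0.44 (SE), adjusted p = 0.0195) was lost when clone T replicate 2, 3 or 4 was left out (adjusted p = 0.0534 to 0.085), and that of Mfap4, a microfibril protein (log2 difference -1.47 ± 0.41 (SE), adjusted p = 0.0266), without a filter (adjusted p = 0.0554) and when clone T replicate 1, 2 or 3 was left out (adjusted p = 0.0657 to 0.125).

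**Figure D5:**
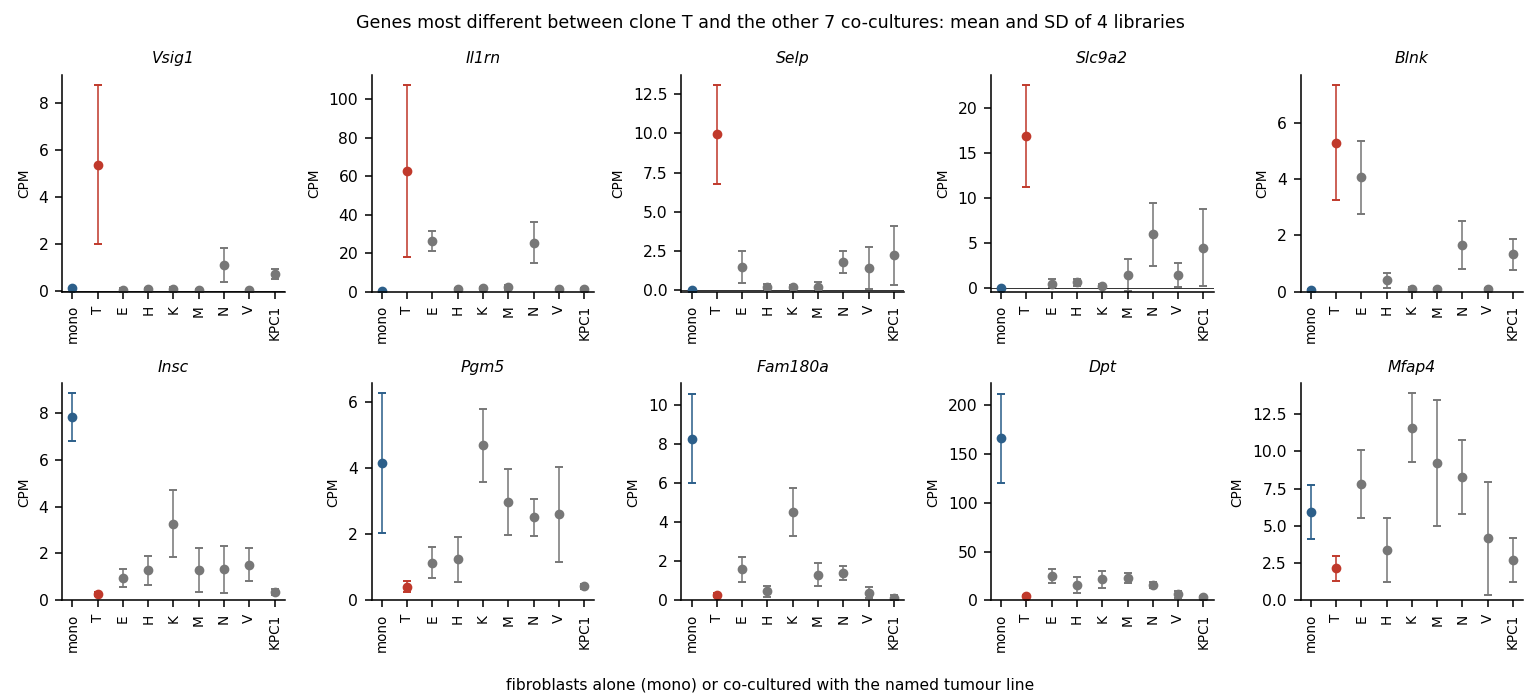
Each panel is 1 gene, the x axis gives fibroblasts alone (mono, blue), the clone T co-culture (red) and the co-cultures with clones E, H, K, M, N and V and KPC1 (grey), and points and bars are the mean and SD of 4 libraries in CPM. Clone T has the highest mean in the 5 upper panels, with clone E next in Il1rn and Blnk, and in the lower panels KPC1 lies at or near the level of clone T.

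Among the lists, stress response and aminoacyl-tRNA synthetase genes were called only higher in that contrast. Other lists also had calls in 1 direction only, such as the interferon-stimulated list below. Of 20 aminoacyl-tRNA synthetase genes, 6 were higher with clone T than with the mean of the other lines and 0 lower, and of 27 stress response genes 5 were higher and 0 lower, beside 4.66% and 2.00% of all genes. Both counts of 0 in edgeR's test were also 0 at an unadjusted p under 0.05, with DESeq2 and with limma on RPKM. As only 2.00% of all genes were called lower, a count of 0 lower in lists this small sets none apart. Asns was 1.55 times the mean of the other lines (log2 difference 0.63 ± 0.16 (SE), adjusted p = 0.013) and Stc2 1.93 times (log2 difference 0.95 ± 0.23 (SE), adjusted p = 0.0108). Among EGF receptor ligands, those above the mean of the other lines included Areg (log2 difference 1.79 ± 0.35 (SE), adjusted p = 0.00154) and Btc (log2 difference 1.40 ± 0.16 (SE), adjusted p = 5.25e-07), as was Spp1 (log2 difference 1.24 ± 0.24 (SE), adjusted p = 0.00168). Of 30 sterol and fatty acid genes and 21 matrix protease genes, 0 passed in either direction by edgeR's test. At an unadjusted p under 0.05 there were 2 sterol genes and 4 protease genes, with DESeq2 0 and 2, and with limma on RPKM 0 and 1. Of 33 interferon-stimulated genes, 3 were lower with clone T and 0 higher by edgeR, with 1 higher at an unadjusted p under 0.05, 1 with DESeq2 and 0 with limma. Fap, Cxcl12 and Rspo2, with some of the widest changes against mono-culture, did not pass here (adjusted p = 0.161 for Fap, 0.113 for Cxcl12 and 0.894 for Rspo2).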

How the data were processed

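Gene-level RNA-seq of sorted murine pancreatic fibroblasts was compared between 4 clone T co-culture and 4 mono-culture libraries, in a fit of all 36 libraries in 9 groups. Libraries were made from 200 ng RNA with a strand-specific poly(A) kit, 14 cycles of amplification and 76 bp paired reads. Whether counting used strand, or how reads matching several genes were treated, is not given in the sources used here. The authors deposited whole-number counts per gene, which are not normalized, and a second table that the authors deposited holds RPKM. The submitters' processing notes name STAR, featureCounts, edgeR and mm10, with no versions. All columns of both tables matched a labelled sample.

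The filterByExpr function of edgeR (version 4.0.16, R version 4.3.3) kept 14439 of 39017 genes, library totals were scaled by TMM, and the quasi-likelihood test was run for clone T minus mono-culture and for clone T minus the mean of the other 7 co-cultures, with Benjamini-Hochberg adjustment over all genes tested and a threshold of 0.05. An adjusted p in the text is from that test, and a fold change is 2 to the power of the fitted log2 fold change. Where all libraries of a group were at 0, the fold is a bound against 3 counts per library, and with 1 to 3 counts over a group the ratio of summed counts is given with its exact 95% interval, and these cover counting error only. Library totals of 12577931 to 20727926 counts put 3 counts at 0.137 to 0.228 CPM. No pair of libraries agreed within sampling noise (smallest chi-square per degree of freedom 5.84). The code was tested on simulated data with the real means, library sizes and 14439 genes, of which 67, 67 and 66 were changed 1.5-fold, 2-fold and 4-fold. For clone T against mono-culture it recovered 47.8%, 73.1% and 90.9% of these, with 8 false calls, and for clone T against the other co-cultures 61.2%, 85.1% and 93.9%, with 7 false calls. In the data 49.8% of genes were called against mono-culture, a far larger share, so these figures do not measure the recovery or false calls of that comparison.

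The genes named in the text, with a mean over the 8 libraries of 2 CPM or more, were the 10 highest and 10 lowest fold changes among called genes whose groups did not overlap, the 5 highest and 5 lowest differences from the other co-cultures, and the 5 with the highest mean CPM called in each direction. From 25 pathway lists and 7 cell-type lists, members with large changes and members that define a pathway were named whether or not they passed, and some of these had a mean under 2 CPM. Some genes that this rule names, or that the lists hold, are not reported here, and they stay in the counts, medians and summed levels. The members, lists and tests were chosen with earlier results of these data known. Gene coordinates are those of GENCODE M21 (GRCm38), matched by gene identifier. Alternatives were RLE scaling, no scaling, DESeq2 1.42.0, dropping the filter, a minimum of 10 counts in each library, a replicate block, only the groups compared, limma 3.58.1 on log2(RPKM + 1) and log2(RPKM + 0.1), an adjusted p below 0.01, the other 6 clones as reference, and each library left out in turn.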

Additional observations from a re-analysis of the deposited data

Results flagged for a closer look

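In 26 of 452 sets of 4 libraries, each 1 named gene or library property in 1 group, a single library stood apart from the other 3, where chance alone marks about 1 set in 20, or 22.6 of these. The value given is the library's gap to its nearest neighbour as a fraction of the group's range, above the 95% critical value of Dixon's test. In clone T replicate 1 the value was 0.983 for Fam180a, 0.873 for Nid2, 0.997 for Spp1, 0.889 for Smad7 and 0.848 for Notum. In clone T replicate 2 the value was 0.872 for Bmp6. In clone T replicate 4 the value was 0.830 for Slc9a2, 0.929 for Fth1, 0.834 for Lox, 0.891 for Cald1, 0.843 for Vegfa and 0.904 for Loxl4. In mono-culture replicate 1 the value was 1 for Cadm1, 0.872 for Inhba, 1 for Cxcl5, 0.857 for Chac1 and 0.833 for Mvk. In mono-culture replicate 2 the value was 1 for Elf3 and 0.909 for Nfe2l2. In mono-culture replicate 3 the value was 0.888 for Cdkn1c and 1 for Mmp13. In mono-culture replicate 4 the value was 1 for Krt8, 1 for Slc9a2, 0.884 for mt-Co1, 0.879 for Col4a1 and 0.902 for Rgs5. The value of 1 in mono-culture marks genes with counts in a single library. Clone T replicate 1, with the highest epithelial sum, stood apart in Spp1 at 3819.6 CPM.

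The other results listed here are changes that differed between clone T and the mean of the other 7 co-cultures, by the test of that difference. The log2 difference was 5.68 for Vsig1, 4.23 for Il1rn, 3.84 for Selp, 3.77 for Slc9a2 and 3.58 for Blnk, and -2.17 for Insc, -2.08 for Pgm5, -1.67 for Fam180a, -1.54 for Dpt and -1.47 for Mfap4. Of these, Fam180a and Mfap4 lost their call when single clone T libraries were left out, as given beside their values above.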

How the results depend on the processing

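The number of genes that differed between clone T and mono-culture stayed within 1.5 times of 7186 under each alternative: 5505 at an adjusted p below 0.01, 7317 with DESeq2, and 6437 to 7077 with 1 library left out. Between 5942 and 7180 of the 7186 were also called under each alternative run for that comparison, the stricter threshold not counted. Against the other 7 co-cultures the count of 962 was 358 at an adjusted p below 0.01, 2030 with the other 6 clones as reference, and 439 to 982 with 1 library left out, with 626 without clone T replicate 2. For 222 genes against mono-culture, 3594 of 3719 recomputed values kept their direction and side of the threshold, 97 fell short of it, 28 passed it newly and 0 of the called ones turned. For the 10 genes against the other co-cultures, 155 of 162 kept it and 7 fell short.

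Medians of lists moved by more than the spread within groups as follows. With RPKM + 1 they were 0.56 for basement membrane, 0.55 for matricellular, 0.35 for TGF-beta, 0.35 for Wnt, 0.22 for cytokine, -0.11 for NRF2, 0.0378 for metallothionein, -0.23 for replication, 0.34 for p53, -0.30 for resting fibroblast and 0.51 for growth factor. With RPKM + 0.1 they were 0.55 for matricellular, 0.35 for TGF-beta, 0.55 for Wnt, 0.41 for cytokine, -0.12 for NRF2, -0.24 for replication and 0.35 for p53. Without a filter they were 0.50 for basement membrane, 0.75 for matricellular, 0.13 for protease and 0.35 for Wnt. With at least 10 counts in every library they were -0.0395 for Hedgehog, 0.13 for cytokine, -0.26 for resting fibroblast and 0.74 for growth factor. Without scaling they were 0.58 for matricellular, -0.11 for NRF2 and 0.34 for p53, and with only the groups compared -0.0174 for Hedgehog and -0.55 for resting fibroblast. With 1 library left out they ran 0.0195 to 0.23 for contractile, 0.53 to 0.69 for matricellular (0.57), -0.0749 to 0.0465 for protease (-0.00827), 0.51 to 0.75 for BMP, 0.70 to 0.88 for Wnt (0.87), -0.0728 to 0.22 for glycolysis, -0.13 to 0.0244 for NRF2, 0.37 to 0.48 for p53, -0.54 to -0.37 for resting fibroblast and 0.52 to 0.70 for growth factor. Numbers of members called moved by over 1.5 times in few cases. With at least 10 counts in every library there were 10 Wnt, 1 complement, 1 epithelial, 2 leukocyte, 2 pericyte, 1 mesothelial and 1 acinar or islet genes, since fewer genes were tested. There were 5 contractile genes with RPKM + 1 and 1 acinar or islet gene with only the groups compared. Beyond the smaller number of genes tested, the cause was not tested.

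Replicate numbers 1 to 4 are shared by all groups in the labels, but same-numbered clone T and mono-culture libraries deviated together with r above 0.1 in 1 of 4 pairs (r from -0.06 to 0.46), and 1 of 4 correlated best with its own number. Between clone T and the other co-cultures r was above 0.1 in 14 of 28 same-numbered pairs (r from -0.52 to 0.67), among them the 4 pairs with KPC1. As the labels give no source for the numbers and not every pair exceeded 0.1, the fit without the block was kept. With a replicate block, 7801 genes differed from mono-culture, 1583 from the other co-cultures, and 1 endothelial gene was called.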

Other observations

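The values of some genes counted or named above were not yet given. Angptl4, an inhibitor of lipoprotein lipase, rose from 2.37, 1.92, 2.204 and 3.06 CPM to 38.96, 25.1, 39.5 and 31.6 CPM (log2 fold change 3.81 ± 0.68 (SE), adjusted p = 3.58e-05). Fgf18, a fibroblast growth factor and like Angptl4 a member of the growth factor list, fell from 1.43, 1.98, 0.608 and 1.37 CPM to 0.168, 0, 0 and 0.166 CPM (log2 fold change -3.93 ± 0.79 (SE), adjusted p = 0.000118). Hlf, a PAR bZIP transcription factor of circadian output, fell from 14.4, 11.7, 8.97 and 12.1 CPM to 0.0561, 0.604, 0.273 and 0.387 CPM (log2 fold change -5.13 ± 0.48 (SE), adjusted p = 1.32e-09), and Slc24a3, a sodium, potassium and calcium exchanger, from 71.9, 80.6, 62.9 and 89.3 CPM to 2.69, 3.405, 2.95 and 4.43 CPM (log2 fold change -4.497 ± 0.41 (SE), adjusted p = 1.43e-09). In Angptl4 and Fgf18 the clone T libraries did not overlap those of mono-culture, as in 48.9% of all genes tested. Hlf and Slc24a3 were taken by a rule that admits only genes without overlap.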
